A study of Mus musculus with 12 samples.

Results

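The Schwann cell myelin genes described here are 8 genes chosen by name: Pmp22, Mbp, Mal, Mag, Prx, Cnp, Egr2 and Sox10. A gene was measured where the array carried non-control probes under exactly that name. Of the 8 genes, 7 were measured, with 39 probes in all, among 19505 gene names on the array. Sox10 had no probe under its name and was not analysed here. Expression was measured on 12 single-colour exon arrays, 4 for the apical turn, 4 for the middle turn and 4 for the basal turn of the cochlea. The animals were 4 male C57BL/6 mice aged 6 weeks. Each array was hybridized with Cy3-labeled RNA made from 25 ng of total RNA of a dissected turn. A turn held the lateral wall with the stria vascularis and the spiral ligament and prominence, together with organ of Corti and spiral ganglion, so that every value is an average over all these cells. Each turn lay on a slide of its own, and turn and slide cannot be told apart.

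Myelin is the stack of glial membrane that insulates an axon and lets the action potential jump from node to node. In the cochlea, Schwann cells wrap the peripheral processes and the axons of type I spiral ganglion neurons, and myelin is also laid around many of their cell bodies. Oligodendrocytes take over where the auditory nerve enters the brain. Compact myelin is held together by membrane proteins such as PMP22 and by MBP on the cytoplasmic side. MAG sits on the glial membrane facing the axon, periaxin (Prx) is a scaffold of the outer Schwann cell membrane, and CNP is an enzyme of the cytoplasm-filled myelin channels. MAL is a lipid raft protein of myelin that many epithelia also make. Egr2 (Krox-20) and Sox10 are the transcription factors that switch on the myelin program in Schwann cells.

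The probes are oligonucleotides of 60 bases. Those shown next were chosen because they carry a split within 1 gene and a typical response in another, and they are given 5′ to 3′ on the strand of the gene, with positions on mm9. Mag probe 1 lies at chr7:31696910-31696969 on the minus strand, and its capitals mark the start codon. Mag probe 7 lies at chr7:31686082-31686141 on the minus strand, in the coding sequence, and has no base marked. Pmp22 probe 3 lies at chr11:62947938-62947997 on the plus strand, and its capitals mark the 3 codons of the N-glycosylation site of the protein. Mag probe 1 gave nearly the same signal in every turn, whereas Mag probe 7 and Pmp22 probe 3 gave less signal in the base.
Mag probe 1: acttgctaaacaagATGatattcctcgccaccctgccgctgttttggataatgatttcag
Mag probe 7: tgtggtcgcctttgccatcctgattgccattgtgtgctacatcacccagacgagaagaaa
Pmp22 probe 3: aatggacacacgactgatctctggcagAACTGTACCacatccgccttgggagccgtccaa

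The RefSeq table for GRCm38.p6 lists 15 transcription starts for the measured genes other than Mbp, and Prx, Mal and Cnp have a single one each. The 250 bases before those 3 starts are shown because Prx and Cnp had less signal in the base and Mal did not. Both strands were searched for the SOX-type words ACAAAG and ACAATG, the EGR-type words GCGTGGGCG and GCGGGGGCG, and the TATA word TATAAA, and capitals mark every match. The windows lie at chr7:27499074-27499323 on the plus strand for Prx, at chr11:100574689-100574938 on the plus strand for Cnp and at chr2:127656696-127656945 on the minus strand for Mal.
Prx: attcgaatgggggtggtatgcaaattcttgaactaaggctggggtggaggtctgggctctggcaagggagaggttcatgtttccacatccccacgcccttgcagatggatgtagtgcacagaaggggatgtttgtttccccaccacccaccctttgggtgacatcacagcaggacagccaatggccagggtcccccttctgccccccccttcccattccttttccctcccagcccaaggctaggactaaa
Cnp: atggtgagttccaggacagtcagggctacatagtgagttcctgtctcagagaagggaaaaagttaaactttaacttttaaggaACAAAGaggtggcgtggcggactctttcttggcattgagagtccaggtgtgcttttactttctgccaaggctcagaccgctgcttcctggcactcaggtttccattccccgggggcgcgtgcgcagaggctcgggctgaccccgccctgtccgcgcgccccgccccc
Mal: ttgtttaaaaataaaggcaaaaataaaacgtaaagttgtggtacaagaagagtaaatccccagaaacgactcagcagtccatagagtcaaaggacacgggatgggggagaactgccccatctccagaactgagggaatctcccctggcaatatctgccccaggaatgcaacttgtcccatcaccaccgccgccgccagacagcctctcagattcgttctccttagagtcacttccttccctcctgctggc
Cnp held ACAAAG once, 167 bases before its start. Mag held it, on the other strand, before 2 of its 3 listed starts, whose windows overlap. No other listed start of these genes had any of the 5 words in its window. Among 32851 promoters of the same length, 16.5% held ACAAAG, 10.7% ACAATG, 0.536% GCGTGGGCG, 2.57% GCGGGGGCG and 12.4% TATAAA.

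Values in the following are signal intensities scaled to a common 75th percentile, averaged over the probes of a gene on the log2 scale, and differences are log2 differences with their standard error. A gene was called when limma's moderated contrast had an adjusted p under 0.05 over all genes. Of the 7 measured myelin genes, 6 were called higher in the apical than in the basal turn, against 17.6% of all genes, and none lower, against 21.6%. The same 6 were called higher in the middle than in the basal turn, against 11.6% of all genes, and none lower, against 9.23%. None was called between the apical and the middle turn, where 4.42% of all genes were called higher and 7.61% lower. The median log2 difference of the 7 genes was 0.67 for apical minus basal and 0.73 for middle minus basal, beside -0.04 and 0.04 over all genes. For apical minus middle, the medians were -0.06 for the 7 genes and -0.07 for all genes. In these bulk samples, fewer Schwann cells and less myelin RNA per cell cannot be told apart. The paper describes 4 mice whose cochleae were cut into apical, middle and basal turns, with independent mouse samples on the 4 arrays of a turn. By this design each mouse gave a sample of every turn, so arrays of different turns are not independent. The labels do not say whether samples of different turns with the same number came from 1 mouse, and the main fits did not pair them.

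**Figure D1:**
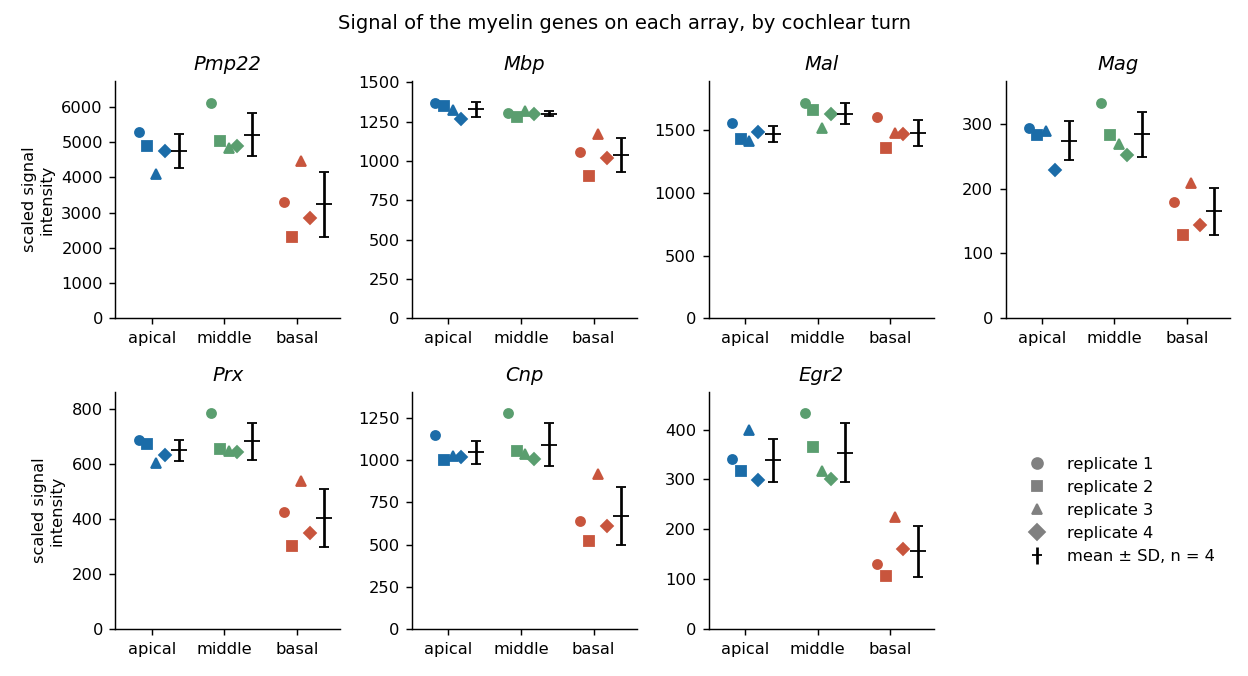
Scaled signal intensity (vertical axis, linear, from 0) of the 7 measured myelin genes on each of the 12 arrays, by cochlear turn; symbols stand for sample numbers and bars for the mean ± SD of 4 arrays. Basal replicate 3 was the highest and basal replicate 2 the lowest of the basal arrays for every gene but Mal, whose 3 turns overlapped.

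Pmp22 encodes a membrane protein of compact myelin whose dosage is altered in inherited demyelinating neuropathy. The 4 apical arrays read 5284, 4880, 4105 and 4739, the 4 middle arrays 6123, 5026, 4833 and 4884, and the 4 basal arrays 3314, 2309, 4468 and 2857. The basal arrays all lay below the middle arrays, while basal replicate 3 exceeded apical replicate 3. Means were 4752 ± 489 (SD, n = 4) for the apical, 5217 ± 610 for the middle and 3237 ± 918 for the basal turn. The apical turn was 1.51-fold higher than the basal turn (log2 difference 0.59 ± 0.172 SE, adjusted p = 0.0178) and the middle turn 1.65-fold higher (adjusted p = 0.0136). The call between apex and base was lost without apical replicate 1 (adjusted p = 0.0508) and without basal replicate 4 (adjusted p = 0.0502).

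Mbp encodes myelin basic protein, which zips the cytoplasmic faces of the membrane together. The apical arrays read 1371, 1348, 1325 and 1264, the middle arrays 1306, 1280, 1317 and 1297, and the basal arrays 1058, 905, 1172 and 1019. All basal arrays lay below all others, and the middle arrays were the closest to each other. The difference was the smallest of the 6 called, with a 1.28-fold higher apical signal (0.36 ± 0.0694, adjusted p = 0.00187) and a 1.26-fold higher middle signal (0.33, adjusted p = 0.00806) than in the base. This value averages 10 probes of unlike behaviour, which are described further on.

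Mal was the exception among the measured genes. Its apical arrays read 1554, 1428, 1414 and 1486, its middle arrays 1720, 1658, 1515 and 1631, and its basal arrays 1603, 1355, 1481 and 1467. The 3 turns overlapped. The apical minus basal difference was -0.00 with a 95% confidence interval from -0.14 to 0.13 (adjusted p = 0.966), an interval that lies below the estimates of the other 6 genes. The middle turn read 0.14 above the base, with an interval from 0.01 to 0.28 (adjusted p = 0.125). That comparison passed the threshold at 0.18 with dim probes left out (adjusted p = 0.0176). Between apex and base, quantile normalization gave 0.17 (adjusted p = 0.0434).

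Mag encodes the adhesion protein of the myelin membrane next to the axon. The apical arrays read 294.4, 283.5, 288.8 and 229.1, the middle arrays 332.9, 283.2, 268.2 and 252.3, and the basal arrays 179.7, 128.0, 209.1 and 144.5. Every basal array lay below every apical and middle array. The apical turn was 1.68-fold higher than the base (0.75 ± 0.151, adjusted p = 0.00239) and the middle turn 1.74-fold higher (0.80, adjusted p = 0.00483).

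Prx encodes periaxin, which links the outer Schwann cell membrane to the extracellular matrix. Its apical arrays read 684.6, 671.1, 603.2 and 632.2, its middle arrays 782.9, 652.0, 645.5 and 643.5, and its basal arrays 424.1, 299.8, 538.5 and 347.1. The basal arrays did not overlap with the others, and their highest stood at 89.3% of the lowest apical array. The apical turn was 1.65-fold higher than the base (0.72 ± 0.152, adjusted p = 0.00307) and the middle turn 1.73-fold higher (0.79, adjusted p = 0.00527).

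Cnp encodes a phosphodiesterase made by both Schwann cells and oligodendrocytes. Its apical arrays read 1147, 1002, 1022 and 1016, its middle arrays 1277, 1051, 1033 and 1004, and its basal arrays 637.2, 519.4, 917.5 and 610.8. Again no basal array reached the others, with basal replicate 3 the nearest. The apical turn was 1.59-fold higher than the base (0.67 ± 0.148, adjusted p = 0.00406) and the middle turn 1.66-fold higher (0.73, adjusted p = 0.00701).

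Egr2 is the zinc-finger transcription factor of the myelin program. Its apical arrays read 340.6, 316.4, 398.7 and 298.7, its middle arrays 432.9, 365.7, 316.8 and 300.2, and its basal arrays 131.19, 107.05, 224.78 and 159.58. The highest basal array stood at 75.3% of the lowest apical array. The apical turn was 2.25-fold higher than the base (1.17 ± 0.203, adjusted p = 0.000988) and the middle turn 2.34-fold higher (1.23, adjusted p = 0.0025). Egr2 was the only member that also passed the second rule of an adjusted F test under 0.05 with a 2-fold difference, which 3.27% of all genes passed as higher in apex than base, 1.12% as lower there, and 2.2% as higher in middle than base. Its value rests on 2 probes, and probe 1 was well above background on all apical arrays, on 3 middle arrays and on 1 basal array, with a basal mean of 21.3. Probe 2 alone, well above background everywhere, gave a 1.84-fold higher apical signal (0.88, adjusted p = 0.0088 over all probes), which is under 2-fold and less than single probes of Prx, Mag and Mbp gave.

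The basal arrays did not overlap with the apical arrays for 5 of the 7 genes (Mbp, Mag, Prx, Cnp and Egr2), against 16.9% of all genes with every apical array above every basal array. Between middle and base, 6 of the 7 genes did not overlap, against 12.5% of all genes. Between apex and middle every gene overlapped, against 7.3% of all genes with every apical array above every middle array. The basal arrays varied more than the others. The SD of the log2 signal over the 4 basal arrays was 0.40 for Pmp22, 0.37 for Prx, 0.35 for Cnp, 0.32 for Mag and 0.46 for Egr2, against 0.08 to 0.18 for the same genes over the apical arrays, and the median gene had 0.12 in the base and 0.11 in the apex. For the genes other than Mal, the basal replicate 3 signal was 1.29-fold (Mbp) to 2.10-fold (Egr2) that of basal replicate 2. When basal replicate 3 was left out, the median of the 7 genes rose to 0.83 for apical minus basal, and without basal replicate 2 it was 0.56.

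**Figure D2:**
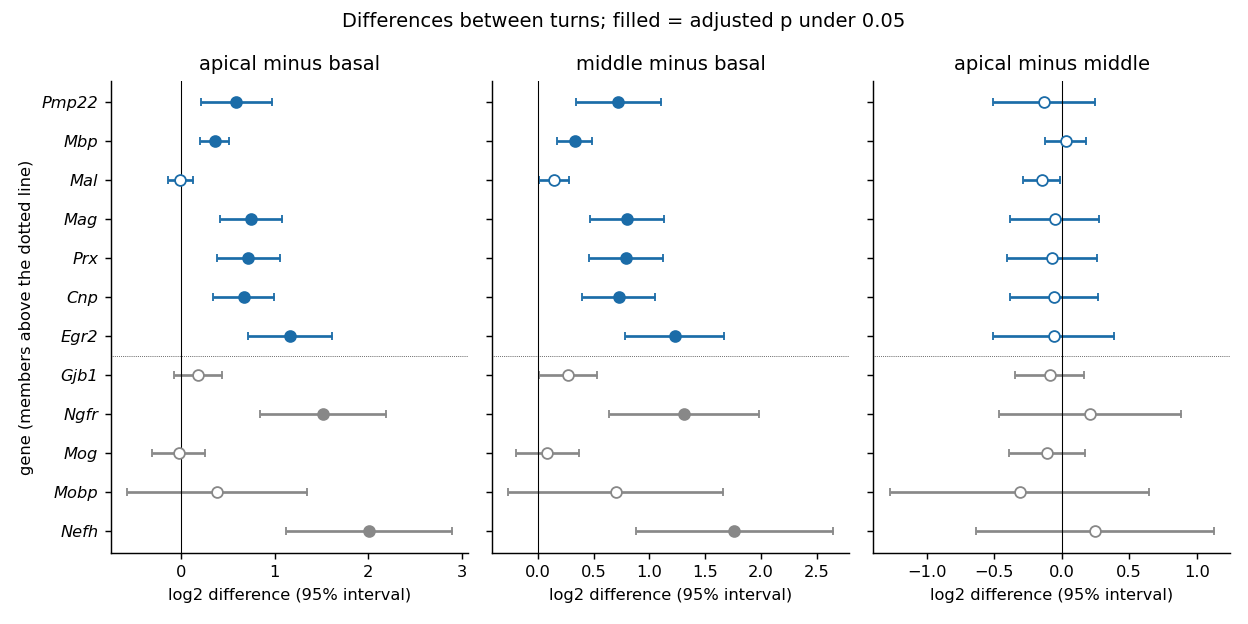
Log2 difference between turns (horizontal axis) with its 95% confidence interval from limma for the 7 measured myelin genes (above the dotted line) and 5 related genes; filled points passed an adjusted p of 0.05. The 6 called members lie right of 0 in both comparisons with the base, and no gene shown is filled for apical minus middle.

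Scaling mattered for the size and partly for the direction of these differences. With each array scaled to its spike-in control probes, the median of all genes moved to -0.45 for apical minus basal and that of the 7 genes to 0.25. Of the members, only Egr2 was then called higher in apex than base (0.75, adjusted p = 0.00397), where 4.7% of all genes were. Mal was called lower in the apex (-0.42, adjusted p = 0.000473), as were 68.7% of all genes under this scaling. Mbp then turned to -0.06 (adjusted p = 0.567). For middle minus basal, 5 of the 7 members were called higher under this scaling, against 4.13% of all genes. Scaling to the median called the same 6 members higher in both comparisons with the base, and quantile normalization called them together with Mal for apical minus basal.

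Read singly, the exon probes of a gene did not always differ between turns alike. Whether each probe reads only transcripts of its gene was not tested. Of the 39 probes, 36 were well above background on all 12 arrays, and the exceptions were Egr2 probe 1, Mag probe 3 and Mal probe 1. Tested singly among all probes, 27 of the 39 were called higher in apex than base, against 18% of all probes, and 1 was called lower, against 16.4%. Between middle and base, 27 were called higher, against 7.76% of all probes, and none lower, against 6.02%. No probe of these genes was called between apex and middle, where 3.04% of all probes were called higher and 2.86% lower. Without basal replicate 4, the count for apex against base was 17, and without middle replicate 1 the count for middle against base was 15. The shares of all probes without these arrays were not counted.

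**Figure D3:**
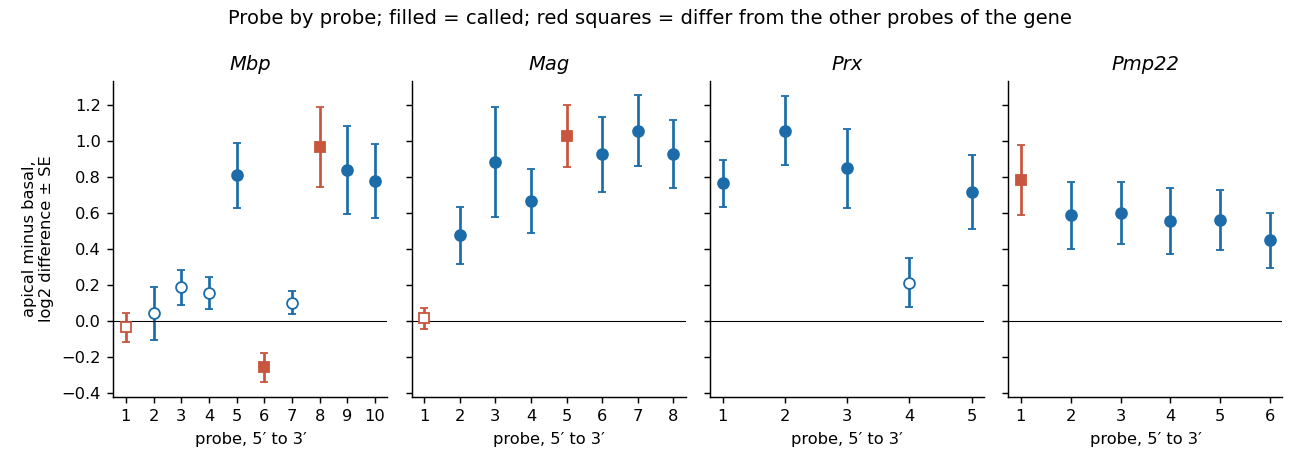
Log2 difference between apical and basal turn (vertical axis, ± SE) of each probe of Mbp, Mag, Prx and Pmp22, numbered 5′ to 3′ along the gene; filled symbols passed an adjusted p of 0.05 over all probes, and red squares differed from the other probes of their gene. Of the Mbp probes, probe 6 stands at -0.26, 5 lie between -0.03 and 0.19 and 4 between 0.78 and 0.97, Mag probe 1 stands at 0.02, and the 6 Pmp22 probes lie close together.

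The Mbp gene holds a second transcription unit, golli, whose transcripts start upstream of the classic myelin transcripts, share some of their exons and are also made by neurons and immune cells. The array lists Mbp probes 1 to 4 only under golli-type transcripts, RefSeq variants 7 and 8. Their apical minus basal differences were -0.03, 0.04, 0.19 and 0.15, none of them called. Probe 6, listed for variant 8 alone, read 3723 ± 212 (SD, n = 4) in the apex and 4460 ± 438 in the base, and it was the 1 member probe called lower in the apex (-0.26, adjusted p = 0.0334). Probe 7, listed for 3 transcripts but for neither variant 7 nor variant 8, differed by 0.10 (adjusted p = 0.262). Probes 5, 8, 9 and 10, each listed for 4 RefSeq transcripts, were called higher in the apex by 0.81, 0.97, 0.84 and 0.78. Of these, probes 5, 8 and 10 were listed for variant 7 too. No member probe had more than 4 transcript entries listed, so a list of 4 may be incomplete. Probes 1 to 4 and 6, listed only under golli-type transcripts, thus did not rise. Each rising probe was listed under transcripts other than variants 7 and 8, as was probe 7, which was not called. The cause of the split was not tested. Probe 8 read 3792, 3438, 3413 and 3151 on the apical arrays, 4350, 3479, 3579 and 3184 on the middle arrays, and 1872, 1166, 2857 and 1543 on the basal arrays. The gene-level difference of Mbp of 0.36 thus averages 4 probes near 0.8 to 1.0 and 6 probes between -0.26 and 0.19. This grouping of probes by listed transcripts was made after their values were seen.

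Mag showed a split of another kind. Probe 1, which covers the start codon, read 739.7, 684.0, 672.2 and 689.2 on the apical arrays, 679.9, 688.7, 692.2 and 759.0 on the middle arrays and 710.9, 687.4, 684.8 and 669.2 on the basal arrays. Its apical minus basal difference was 0.02 (adjusted p = 0.854). Probe 1 was brighter than the 2 probes after it, with an apical mean of 696 against 75.2 for probe 2 and 73.3 for probe 3. Whether the signal of probe 1 came from Mag transcripts alone was not tested. Probe 7, in the coding sequence, read 1369, 1219, 1127 and 949.8 in the apex and 682.6, 378.9, 710.0 and 518.8 in the base, a difference of 1.06 (adjusted p = 0.00217). The 7 probes after the first were all called higher in the apex, by 0.48 to 1.06.

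Each probe was also set against the mean of the other probes of its gene, which tests whether the probes of a gene differ between turns in unlike ways. Of the 37 member probes in genes with 3 or more probes, 6 passed the F test over the 3 turns, which is 6 of 37 against 6.29% of all probes tested. They were Mag probes 1 (adjusted p = 0.0264) and 5 (adjusted p = 0.00737), Mbp probes 1 (adjusted p = 0.0193), 6 (adjusted p = 0.029) and 8 (adjusted p = 0.0489), and Pmp22 probe 1 (adjusted p = 0.0272). Mag probe 5 was past the threshold under all 16 settings run, and the others under 4 to 13 of them. The 16 include scaling to the spike-in probes, which cannot change this test, since a shift of a whole array cancels between the probes of a gene. The apical minus basal difference of Mag probe 5, 1.03, was like those of probes 6, 7 and 8, at 0.93, 1.06 and 0.93. The mean it was set against included probe 1, at 0.02, so the test does not set probe 5 apart from probes 6 to 8. The count of 6 was sensitive to single arrays, with 1 probe without basal replicate 2 and 14 without basal replicate 3.

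The probes of the remaining members were counted in turn. All 6 Pmp22 probes were called higher in the apex, from 0.45 to 0.79, and probe 3 read 4103 ± 393 in the apex and 2779 ± 795 in the base. Of the 5 Prx probes, 4 were called, from 0.72 to 1.06. Prx probe 4, listed only for transcript variant 2, differed by 0.21 (adjusted p = 0.264). Of the 4 Cnp probes, 3 were called, from 0.72 to 0.88, while probe 1, in the most 5′ position, differed by 0.32 (adjusted p = 0.103). Both Egr2 probes were called, by 1.46 and 0.88. Of the 4 Mal probes, probe 3 was called by 0.15 (adjusted p = 0.0486), and probe 1 was not well above background on any array.

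Other myelin genes were read from lists drawn up with earlier results of these data known. Gjb1, the gap junction gene of Schwann cell incisures that is mutated in X-linked neuropathy, differed by 0.18 and was not called (adjusted p = 0.264).

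Of 26 measured genes in the list of other peripheral and shared myelin proteins, 10 were higher in apex than base and 8 lower. Over all genes, 17.6% were higher and 21.6% lower. The list median was 0.18. The higher ones included Cldn19, a tight junction claudin of Schwann cells, at 0.94 (adjusted p = 0.00461), Drp2, the periaxin partner, at 0.85 (adjusted p = 0.000345), and Omg, the oligodendrocyte myelin glycoprotein that neurons also make, at 1.05 (adjusted p = 0.0204). Ninj2, an adhesion gene induced in injured nerve, went the other way at -2.60 (adjusted p = 9.64e-07). Of 24 genes of myelin lipid synthesis, 4 were higher, near the share of all genes, and 11 lower in the apex, with a median of -0.16. Ugt8a, which makes galactosylceramide, was higher by 1.46 (adjusted p = 0.00379) and Fa2h, the fatty acid 2-hydroxylase, by 0.89 (adjusted p = 0.00215). Lass2, a ceramide synthase, was lower by -0.59 (adjusted p = 3.15e-05) and Smpd3, a neutral sphingomyelinase, by -1.70 (adjusted p = 0.000152).

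Among 35 measured regulators of Schwann cells, 12 were higher in the apex and 5 lower, beside 17.6% and 21.6% of all genes, with a median of 0.10. Sox2, a factor of immature Schwann cells and of cochlear supporting cells, was higher by 1.67 (adjusted p = 0.000152). Nrg1, the axonal growth factor that sets myelin thickness, was higher by 1.53 (adjusted p = 0.004), Pou3f2 (Brn2) by 1.43 (adjusted p = 0.0249) and Adam22, the axonal receptor of LGI proteins, by 1.37 (adjusted p = 0.00182). Of 18 other genes of demyelinating neuropathy, 6 were higher and 3 lower, beside the same shares of all genes, with a median of -0.00. Gdap1, a mitochondrial gene, was higher by 1.87 (adjusted p = 0.00344), Nefl by 1.80 (adjusted p = 0.00352) and Ndrg1, which is abundant in Schwann cells, by 0.86 (adjusted p = 0.00107).

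Lists of other cells were counted in the same way, beside the same shares of all genes. Of 17 markers of non-myelinating Schwann cells and satellite glia, 5 were higher in the apex and 4 lower, beside 17.6% and 21.6% of all genes, and the list median was 0.17. Ngfr, the p75 neurotrophin receptor, was higher by 1.52 (adjusted p = 0.00239), L1cam by 1.07 (adjusted p = 0.000589) and Cdh2 by 0.69 (adjusted p = 0.00127), whereas Kcnj10, a potassium channel also of the stria vascularis, was lower by -0.78 (adjusted p = 2.51e-05). Of 20 measured spiral ganglion neuron markers, 15 were higher in apex than base and 1 lower, with a median of 1.31. Their summed signal ran from 56490 to 72080 over the apical arrays, from 54370 to 94550 over the middle arrays and from 13870 to 51100 over the basal arrays. Nefh, a neurofilament gene, was higher by 2.01 (adjusted p = 0.0023). Of 20 genes of the axonal node and paranode, 18 were higher and none lower, with Scn1a at 1.83 (adjusted p = 0.00281) and Scn8a at 1.64 (adjusted p = 0.0022), and their summed signal ran from 17960 to 22000, from 16620 to 30060 and from 7149 to 18080 in the apical, middle and basal arrays.

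On the basal arrays, several gene lists had the same order as the myelin genes. Relative to the apical mean, the mean log2 signal of the 7 myelin genes was -0.57, -0.94, -0.24 and -0.68 on basal replicates 1 to 4, and that of the 20 neuron markers was -1.16, -1.83, -0.30 and -1.42. Basal replicate 3 thus stood nearest to the apex in both lists and replicate 2 farthest. The lists of node and paranode genes, neuropathy genes, Schwann cell regulators and non-myelinating glia had this order too. Replicate 3 was nearest and replicate 2 farthest also for the hair cell markers (-1.16 and -1.80), the supporting cell markers (-0.45 and -0.80) and, on the other side of the apex, the macrophage markers (0.22 and 0.49). In the middle turn, replicate 1 was the highest for the myelin and the neuron lists, at 0.26 and 0.40. The part of the content of neurons or of any of these cells in the myelin differences was not tested.

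**Figure D4:**
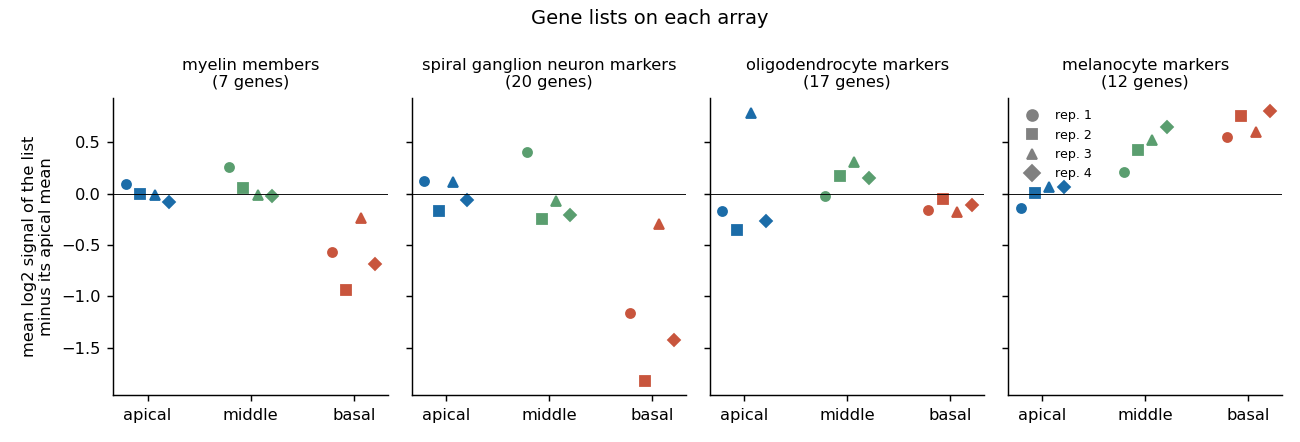
Mean log2 signal of 4 gene lists on each array minus the apical mean of the list (vertical axis), by turn; symbols stand for sample numbers. The myelin genes and the spiral ganglion neuron markers have the same order over the basal arrays, as several lists not plotted do, apical replicate 3 stands at 0.79 for the oligodendrocyte markers, and the melanocyte markers rise from apex to base.

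Central myelin was looked for through 17 measured oligodendrocyte markers, 12 of them with at least 1 probe well above background everywhere. Of the 17, 1 was higher and 3 lower in the apex than in the base, beside 17.6% and 21.6% of all genes. Their summed signal ran from 28060 to 35830 over the apical, from 39020 to 51770 over the middle and from 57440 to 70920 over the basal arrays, and Trf, transferrin, supplied most of it. Mog, a protein of central myelin only, differed by -0.02 (adjusted p = 0.905), and Mobp by 0.39 (adjusted p = 0.553). Apical replicate 3 stood apart in this list. Olig1, the oligodendrocyte transcription factor, read 266 on that array and 7.06, 5.35 and 5.50 on the other apical arrays, where it was not well above background. It was also well above background on middle replicates 2 and 3, at 40.3 and 28.0. On apical replicate 3, Gpr17 read 99.6 against 5.02 to 17.0 on the other apical arrays, and Olig2 40.4 against 5.28 to 10.4. Mobp read 60.4 against 14.8 to 19.7, and 48.6 and 36.5 on middle replicates 3 and 4. Gfap, a gene of astrocytes and non-myelinating Schwann cells, read 415 against 22.0 to 27.6. Mog read 169 against 110 to 123, and Opalin did not rise, at 48.1 against 35.7 to 51.4. Of the 7 myelin genes, Mbp, Mag and Cnp lay within the range of the other apical arrays on apical replicate 3, at 1325, 288.8 and 1022. Egr2 was the highest of the apical arrays there, and Pmp22, Prx and Mal were the lowest. Without apical replicate 3, the same 6 genes were called higher in apex than base, by 0.66 for Pmp22, 0.36 for Mbp, 0.72 for Mag, 0.75 for Prx, 0.68 for Cnp and 1.09 for Egr2.

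The other cell lists checked the tissue, and their counts stand beside 17.6% of all genes higher in apex than base and 21.6% lower. Of 15 hair cell markers, 14 were higher in apex than base, with Slc26a5 (prestin) at 2.94 (adjusted p = 1.74e-06), and of 13 measured supporting cell markers 8 were higher and 3 lower. Of 12 melanocyte markers, 10 were lower in the apex and 1 higher, and of 12 macrophage markers 9 were lower. Of 12 vessel markers, 7 were lower and 1 higher, of 10 fibroblast markers 2 were lower and 4 higher, and of 11 bone cell markers 1 moved each way. None of 7 red blood cell markers was called. Apical replicate 4 stood apart in 3 of these lists. Relative to the apical mean, it read 1.19 for the bone cell markers against -0.69 to -0.10 on the other apical arrays, 0.77 against -0.40 to -0.17 for the red blood cell markers and 0.35 against -0.19 to -0.04 for the fibroblast markers. The same array was the lowest apical array for Mbp, Mag and Egr2. Without it, 1 bone cell marker was higher and 2 were lower, 4 fibroblast markers were higher and 3 lower, and again no red blood cell marker was called. The same 6 myelin genes were then called higher in apex than base, by 0.59 for Pmp22, 0.38 for Mbp, 0.83 for Mag, 0.73 for Prx, 0.69 for Cnp and 1.23 for Egr2. The part of these cells in the myelin differences was not tested.

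Among the genes whose levels were most like the mean standardized level of the 7 myelin genes over the 12 arrays were Sema3b (Pearson r = 0.989), Cldn19 (0.988), Rltpr (0.986), Kcnmb4 (0.981), Chgb (0.980), Pdp1 (0.980), Ndrg1 (0.980), Ugt8a (0.979) and Maneal (0.979), of 12988 genes ranked. After the mean of each turn was subtracted, Cldn19 (0.989) ranked first, and the others high in the order included Maneal, Snap91, Gldn, Ugt8a, Aldh1a3, Kcnmb4, Elavl2 and Rasl10b, at 0.979 to 0.969. Gldn, the gene of gliomedin, which clusters sodium channels at nodes, itself differed by 0.19 between apex and base (adjusted p = 0.64). Among the 7 genes, the deviations from the turn means of Prx and Pmp22 were the most alike (r = 0.982), and those of Mal and Egr2 the least (r = 0.297). These are descriptions over the same 12 arrays, which share slide and RNA input within a turn.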

How the data were processed

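RNA from each turn was labeled by the study with Cy3 and hybridized to an exon array, and Agilent Feature Extraction 10.7.3.1 turned the scans into spot values. The deposited processed signal is a fluorescence intensity from which the authors' software had subtracted the background, with no normalization between arrays. The value table that accompanies the arrays held the same intensities. Probe positions refer to mm9. Here, of 180880 spots per array, 7914 control spots and 622 flagged spots were left out, which left 165865 probes and 19505 gene names. Arrays were brought to a common 75th percentile, as in the study's methods, values were put on the log2 scale without a pseudocount, and repeat spots and then the probes of a gene name were averaged. No dim probe was left out of the main values. Before scaling, this percentile lay between 534 and 722, 77.4% to 81.4% of spots were well above background, no spot was saturated, and 4 arrays per turn limit the precision.

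Turns were taken from the sample titles. Contrasts of turns were fitted with limma 3.58.1 in R 4.3.3 (lmFit, eBayes) over 12 arrays, for all genes, for all probes, and for 159900 probes set against the other probes of their gene, with Benjamini-Hochberg adjustment over each whole table and a threshold of 0.05. The second rule used the F test and a 2-fold difference. The labels name separate samples of 4 mice but no link between the same numbers in different turns. The members, the gene lists and the rule for named genes were chosen with earlier results of these data known. Named were all members, up to 4 called genes of each list with the largest apical minus basal difference (fewer are printed for the lists that check the tissue), genes set by name (Gjb1, Ngfr, Mog, Mobp, Nefh), the 10 genes most like the members in level and in deviation, and the probes that passed the exon-level test. The results of a few genes that this rule names are not reported here. Olig1, Olig2, Gpr17, Opalin and Gfap were named after their values were seen. Promoters came from RefSeq (GRCm38.p6), which matched 6 of the 8 genes, and probe sequences from the array files. The fits were tested on simulated data. Alternatives covered normalization, background correction, probe summary, dim and flagged probes, a pseudocount of 16, single arrays left out, a replicate block, moderation and an unmoderated test.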

Additional observations from a re-analysis of the deposited data

Results flagged for a closer look

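In 4 of 21 groups of 4 arrays (7 genes in 3 turns), 1 array stood apart from the other 3. Its gap to its neighbour took up more of the group's log2 range than Dixon's critical value. Chance gives about 1 such group in 20. The groups share arrays, and genes such as Prx and Pmp22 moved together, so the groups are not independent and 4 of 21 cannot be set against that rate. Middle replicate 1 was high for Prx (share of the range 0.933) and for Pmp22 (0.834), apical replicate 4 was low for Mag (0.85), and apical replicate 1 was high for Cnp (0.851). None of the 4 was a basal array. Without middle replicate 1, the same 6 genes stayed called as higher in the middle than in the base.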

How the results depend on the processing

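The 6 members higher than in the base kept their direction and their calls under most of the settings run. Whether equal sample numbers pair the samples was not settled. Deviations from the turn means correlated by 0.09 on average over 12 same-number pairs, from -0.04 to 0.23, with 6 pairs over 0.1, and by -0.03 over 36 pairs of different number, from -0.26 to 0.25, with 2 over 0.1. Of the 12 arrays, 8 had their highest correlation among the arrays of other turns with one of their own number, a hint from the data and not from the design. Such correlations cannot decide which samples share a mouse, and the value of 0.1 is not the limit of a test. The samples were not treated as paired in the main fits because the labels do not link the numbers. With the sample number as a replicate block, all 27 member results were unchanged, namely the call of each difference and the counts of members called that follow from these calls. The exon-level count was then 3 instead of 6, and the genes lower in the apex than in the middle turn numbered 2260 instead of 1484. The accompanying value table gave no alternative, since it held the same values.

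Scaling to the spike-in probes changed most. Higher in apex than base were 917 genes (3436 in the main setting) and lower 13393 (4209). Between apex and middle 263 genes were higher (862) and 5895 lower (1484), and between middle and base 805 were higher (2270) and 6954 lower (1800). Called members were 1 higher and 1 lower for apical minus basal and 1 lower for apical minus middle. Single members gave 0.17 for Pmp22, -0.059 for Mbp, -0.42 for Mal, 0.33 for Mag, 0.30 for Prx and 0.25 for Cnp (apical minus basal), -0.31 for Mal (apical minus middle) and 0.072 for Mbp (middle minus basal). For apical minus basal, 9 member probes were called higher in place of 27, and the share of all probes under this scaling was not counted. The shares of all genes called for apical minus basal were then 4.7% higher and 68.7% lower. List counts of apical minus basal became 2 higher for other myelin proteins, 2 higher and 19 lower for lipid synthesis, 5 and 21 for regulators, 3 and 11 for neuropathy genes, 2 and 7 for non-myelinating glia, and 0 and 8 for oligodendrocytes. They became 1 lower for node genes, 0 higher for melanocytes, 4 lower for fibroblasts, 0 higher and 2 lower for bone cells, 1 lower for hair cells, 5 lower for supporting cells, 1 lower for red blood cells and 0 higher for vessels. The cause was not tested. The share of apical minus basal calls that were higher was 44.9% in the main setting, 36.8% with quantile normalization, 26.5% with scaling to the median and 6.41% with the spike-in probes.

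Scaling to the median gave 2270 genes higher for apical minus basal, 2881 lower for apical minus middle and 2859 lower for middle minus basal. The median of the probes gave 942 lower for apical minus middle. The normexp background correction gave 541 higher for apical minus middle and 15 exon-level probes. Mal reached 0.17 with quantile normalization (apical minus basal) and, for middle minus basal, passed the threshold at 0.17 with normexp, 0.13 with 16 added, 0.19 with the median of probes and 0.18 with only probes well above background. With only those probes, 2 oligodendrocyte markers were higher and 0 neuron markers lower, and 0 melanocyte and 0 bone cell markers were higher, and normexp also gave 0 for these neuron, melanocyte and bone cell counts.

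Without apical replicate 4, a setting chosen after seeing the data, 2 bone cell markers were lower. With single arrays left out, members higher in apex than base numbered 5 to 6 and higher in middle than base 6 to 6. Pmp22 ran from 0.44 to 0.76, with the call lost without apical replicate 1 and basal replicate 4. Member probes ran from 17 to 27 (apical minus basal; 17 without basal replicate 4) and from 15 to 27 (middle minus basal; 15 without middle replicate 1, 16 without basal replicate 4). Exon-level probes ran from 1 to 14: 2 without apical replicate 1 or 2, 3 without apical replicate 3 or basal replicate 1 or 4, 1 without basal replicate 2 and 14 without basal replicate 3. The shares of all probes with single arrays left out were not counted. Gene counts ran from 2844 to 3473 higher and 3621 to 4204 lower for apical minus basal, from 431 to 955 and from 534 to 2581 for apical minus middle, and from 1489 to 3167 and from 1132 to 1969 for middle minus basal. For Egr2 probe 1, Mag probe 3 and Mal probe 1, signal over background limited the values.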
